A study of Homo sapiens with 6 samples.

Results

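Ribosome biogenesis factors are the proteins that make, modify, cut, fold and export the RNA of new ribosomes, most of them in the nucleolus. The set described here holds 41 genes, taken by symbol from the 23250 rows of a read count table, and all 41 passed the filter on low counts. They were sorted by known role into 4 subunits of RNA polymerase I, 3 core proteins of box C/D small nucleolar ribonucleoproteins (snoRNPs), 4 core proteins of box H/ACA snoRNPs, the 3 members of the PeBoW complex, 9 factors of the small ribosomal subunit, 12 factors of the large subunit, and 6 nucleolar phosphoproteins and chaperones.

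RNA was sequenced from OCI-LY1, an established line of human diffuse large B cell lymphoma (DLBCL). In all 6 samples the line's own BCL6, a repressor of transcription that germinal centre B cells need, had been depleted by siRNA. In 3 samples wild-type BCL6 was then expressed ectopically (wild-type rescue), and in the other 3 samples BCL6 mutated in RD2, a repression domain (mutant rescue). The comparison addresses what the RD2 mutation does to transcript levels when wild-type protein is the reference. No library without a rescue was part of the design, all samples came from 1 cell line, and whether the 3 libraries of a group are separate cultures is not stated, so the p-values reflect the spread among these libraries alone, possibly a technical one.

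The libraries held between 26298456 and 27574867 counts. All 7 B cell markers checked were present, with a summed level of 3993 to 4003 CPM (counts scaled to a common library size) in the wild-type rescue and 3515 to 3550 CPM in the mutant rescue. Of 12 markers of T cells, monocytes, red cells, epithelium, stroma and endothelium, CD3E was at 0 in every library and 2 reached a mean of 1 CPM, the epithelial adhesion gene EPCAM and the endothelial gene PECAM1. The 12 markers summed to 17.2 to 18.5 CPM in the wild-type rescue and 4.96 to 5.59 CPM in the mutant rescue. Nearly all of that difference was EPCAM, at 16.0 ± 0.641 against 3.71 ± 0.309 CPM (SD, n = 3), and PECAM1 had 1.53 against 0.598 CPM. CD8A, CD14, LYZ, COL1A1, HBB and HBA1 had higher means in the mutant rescue, each under 1 CPM. The part of these markers in the results below was not tested. BCL6 transcripts stood at 679 ± 24.3 CPM with the wild-type and 519.9 ± 8.71 CPM with the mutant rescue (SD, n = 3), and whether a difference comes with the RD2 change or with the amount of BCL6 cannot be told apart. CPM values are shares of a library, so in this bulk material less transcript per cell and fewer cells that hold it cannot be told apart.

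Ribosome production starts with RNA polymerase I, which transcribes the long precursor of most ribosomal RNA. SnoRNPs then methylate or pseudouridylate that precursor at chosen bases, while large assemblies of processing factors cut it and build the small and the large subunit separately. Growing cells, among them activated and malignant B cells, need many ribosomes, and the transcription factor MYC is known to bind the sequence CACGTG, an E-box, at many of these genes.

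Some members of the set have that letter sequence near their starts, and others do not. RefSeq windows of 250 bases before to 50 bases after the start (build GRCh38.p14, which is not the build of the counts) were matched by symbol for 34 of the 41 genes. CACGTG stood in at least 1 window of 17 of these 34 (50%), against 10.9% of 15843 protein-coding genes. Among 121 other genes of the pathway, described below, the share was 24.0%. It lay wholly before the start in 6 of the 17 genes and at or after the start in 11, with EBNA1BP2 counted in both, and it spanned the start in RRP9. The stretches below are 30 bases long and centred on the E-box, which is in capitals. The first 5 belong to the genes with an E-box that were at least 1.5-fold lower in the mutant rescue, and the last 2 to genes with small differences, so that both kinds can be compared.
PES1 (chr22:30591880-30591909, minus strand): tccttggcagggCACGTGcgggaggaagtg
NAT10 (chr11:34105602-34105631, plus strand): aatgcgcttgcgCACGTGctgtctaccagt
EBNA1BP2 (chr1:43172790-43172819, minus strand): gatattgttggcCACGTGggatcgaagacc
UTP20 (chr12:101280083-101280112, plus strand): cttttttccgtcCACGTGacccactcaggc
GNL3 (chr3:52686026-52686055, plus strand): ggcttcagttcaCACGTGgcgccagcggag
NOP10 (chr15:34343130-34343159, minus strand): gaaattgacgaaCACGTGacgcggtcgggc
LYAR (chr4:4290068-4290097, minus strand): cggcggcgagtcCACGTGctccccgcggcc
The first base of the E-box was 14 bases after the start in PES1 and 7 in GNL3, counting the start as 1. In UTP20, NOP10 and NAT10 it lay 10, 11 and 15 bases before the start, and in LYAR and EBNA1BP2 64 and 237 bases before it, in EBNA1BP2 before the second of its 2 annotated starts. The same 6 letters thus stood at genes with large falls and at a gene, LYAR, whose level did not pass the test.

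Both strands were searched for 5 sequences in all, and no 2 matches of different sequences shared a base. CCGGAAGT, a core that ETS factors bind, was in the windows of 10 of 34 genes (29.4%) against 6.97% of protein-coding genes and 25.6% of 121 other genes of the pathway. The palindromic core motif of NRF1 was in 1 of 34 (2.94%) against 1.99%, and the TATA-like TATAAA in 1 of 34 against 12.4%. TTCCNNGAA, where N is any base and which covers the core that BCL6 and STAT factors bind, was in none of the 34 against 5.52% of protein-coding genes, which says only that these letters are not in these windows. A match is a description of the sequence and not a binding site shown by these data.

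In the mutant rescue, 38 of the 41 ribosome biogenesis factors fell, none rose and 3 did not pass the test (quasi-likelihood test in edgeR, with a p adjusted over all 12406 tested genes under 0.05). No factor was higher at an unadjusted p under 0.05 either, and DESeq2 and limma-voom also called 0 higher. The background was high, since 34.8% of all tested genes were called lower by the same rule and 70.1% in either direction. The share called lower was 38.9% among the 9957 genes whose mean level lay within the range of these 41. The groups did not overlap, with every mutant library below every wild-type library, for the same number of factors, 38 of 41, against 35.6% of all tested genes, or 72.4% without overlap in either direction. The median log2 fold change, here always mutant minus wild-type rescue, was -0.49 over the 41 genes and 0.01 over all tested genes. Falls of at least 1.5-fold were seen for 11 of 41, against 9.35% of all tested genes and 7.93% of those in the same range of level. The largest was that of NPM3 at 2.0-fold. Just inside that limit was GNL3 (1.504-fold, log2 -0.59) and just outside it NOP14 (1.498-fold, log2 -0.58). Of the 41 fold changes, 31 (75.6%) lay below the lower quartile of all tested genes.

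**Figure D1:**
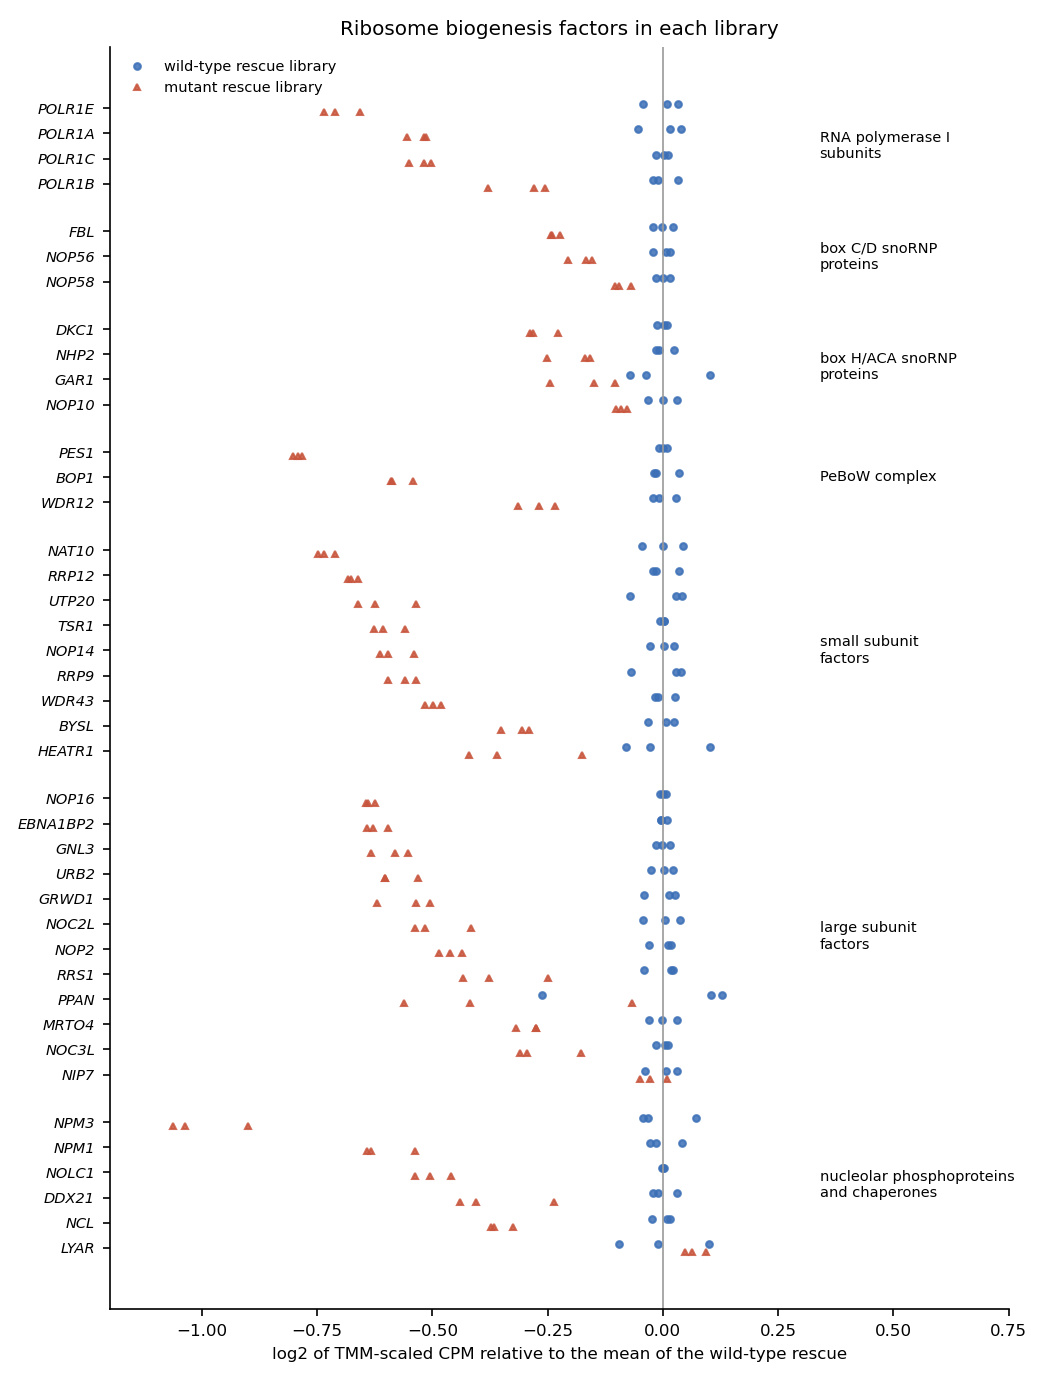
Each row is a ribosome biogenesis factor, grouped by role, and each point is 1 library, with blue circles for the 3 wild-type rescue and red triangles for the 3 mutant rescue libraries. The x axis is log2 of TMM-scaled CPM relative to the wild-type rescue mean of that gene. For 38 of 41 genes all red triangles lie to the left of all blue circles, and the groups overlap for NIP7, PPAN and LYAR.

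Summed over the set, transcripts reached 8576, 8698 and 8546 CPM in the wild-type rescue libraries and 6418, 6648 and 6452 CPM in the mutant rescue libraries. Every mutant library was below every wild-type library, and the ratio of the means was 1.32. As a share of all counts this was 0.848% to 0.858% with wild-type and 0.653% to 0.662% with mutant BCL6. The ratio of the means depended little on NCL and NPM1, the genes of the abundant nucleolar proteins nucleolin and nucleophosmin. Without them the sums were 6109 ± 53.5 against 4588 ± 85.4 CPM (SD, n = 3), a ratio of 1.33.

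**Figure D2:**
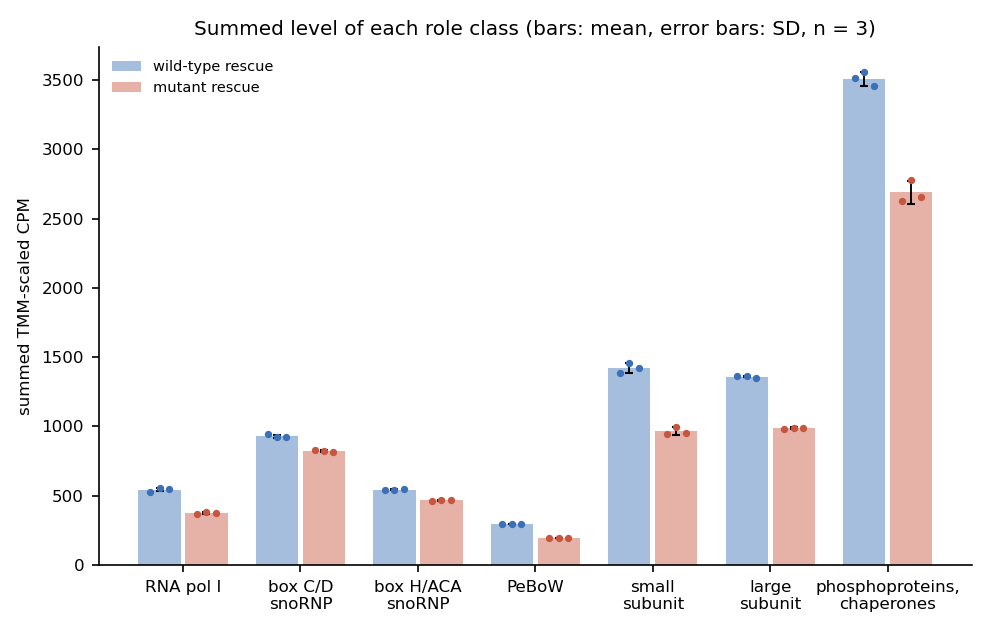
Bars give the mean of the summed TMM-scaled CPM of each role class over 3 libraries, error bars the SD, and points the single libraries, with the wild-type rescue in blue and the mutant rescue in red. Each class was lower in the mutant rescue, from a ratio of 1.13 for the box C/D proteins to 1.54 for PeBoW.

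RNA polymerase I transcribes the ribosomal DNA, and all 4 of its subunits on the list fell, with a median log2 fold change of -0.53 and sums of 544 ± 12.1 and 378 ± 7.26 CPM (SD, n = 3). POLR1E, a subunit that takes part in initiation, stood at 155.8, 161.4 and 164.1 CPM in the wild-type rescue libraries and at 96.4, 101.7 and 98.0 CPM in the mutant rescue libraries. The groups lay far apart, and the fall was 1.63-fold (log2 -0.70, SE 0.036; edgeR, adjusted p = 2.84e-13). POLR1B, the second-largest subunit, had the smallest difference of the 4. It had 112.8, 117.2 and 113.8 CPM in the wild-type and 88.2, 96.0 and 94.4 CPM in the mutant rescue, without overlap (1.23-fold lower, log2 -0.30, SE 0.038; edgeR, adjusted p = 5.08e-07). POLR1A, the largest subunit, had 200.6, 213.9 and 210.5 against 145.5, 145.8 and 141.8 CPM and fell 1.44-fold. POLR1C, whose product also serves RNA polymerase III, had 61.1, 60.6 and 60.0 against 41.3, 42.3 and 42.8 CPM and fell 1.44-fold as well. The ratio of POLR1E to POLR1B in CPM was 1.40 ± 0.037 with wild-type and 1.06 ± 0.028 with mutant BCL6 (SD, n = 3), with no overlap between the groups.

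The 3 box C/D snoRNP proteins of the set, whose particles guide methylation of ribosomal RNA, all fell. FBL (fibrillarin), the methyltransferase itself, had 385.4, 378.7 and 374.0 CPM in the wild-type and 324.9, 321.0 and 320.8 CPM in the mutant rescue. The groups did not overlap, and the fall was 1.18-fold (log2 -0.24, SE 0.030; edgeR, adjusted p = 4.81e-07). NOP58, a scaffold protein of the particle, had 226.1, 221.4 and 224.0 against 209.5, 213.4 and 208.3 CPM, a fall of 1.06-fold (log2 -0.09, SE 0.031; edgeR, adjusted p = 0.0144). Its partner NOP56 fell 1.13-fold, from 330.8, 322.1 and 328.6 to 294.2, 291.3 and 283.8 CPM. The call for NOP58 was lost without wild-type replicate 3 (adjusted p = 0.0504) and without mutant replicate 3 (adjusted p = 0.0577). The class had a median of -0.18, and all 3 fold changes lay between the quartiles of all tested genes.

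Box H/ACA snoRNPs turn uridines of ribosomal RNA into pseudouridines, and their core proteins also belong to telomerase. All 4 fell, with a median of -0.18. DKC1 (dyskerin), the pseudouridine synthase, had 298.0, 302.6 and 301.3 CPM in the wild-type and 246.3, 256.9 and 247.4 CPM in the mutant rescue, 1.2-fold lower (log2 -0.27, SE 0.031; edgeR, adjusted p = 1.66e-07). NOP10, the smallest core protein, had 71.9, 70.3 and 73.4 against 68.1, 67.0 and 67.4 CPM, 1.06-fold lower (log2 -0.09, SE 0.039; edgeR, adjusted p = 0.0433). This was the weakest of the 38 calls. It did not pass with library size scaling (adjusted p = 0.124), in DESeq2 (0.0762), with a minimum of 1 CPM (0.0840), or without wild-type replicate 1 (0.0805), wild-type replicate 3 (0.175), mutant replicate 1 (0.0625) or mutant replicate 3 (0.0880). NHP2, which binds the guide RNA with the other core proteins, fell 1.14-fold, from 133.1 ± 1.98 to 116.6 ± 4.08 CPM (SD, n = 3). GAR1 fell 1.12-fold at a lower level, 38.2 ± 2.46 against 34.0 ± 1.68 CPM (SD, n = 3), and its call was lost without wild-type replicate 1 and without mutant replicate 1.

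PES1 (pescadillo), BOP1 and WDR12 form PeBoW, a complex needed to process the precursor of the large subunit's RNA. PES1 had 197.9, 199.1 and 196.7 CPM in the wild-type and 115.1, 113.4 and 114.4 CPM in the mutant rescue. The libraries of each group lay within 3 CPM of each other, and the fall was 1.73-fold (log2 -0.79, SE 0.032; edgeR, adjusted p = 6.77e-15), the second largest of the set. WDR12 had 74.0, 76.6 and 74.6 against 60.4, 63.8 and 62.3 CPM, a fall of 1.21-fold (log2 -0.27, SE 0.040; edgeR, adjusted p = 3.72e-06). BOP1 fell 1.49-fold, from 23.3 ± 0.488 to 15.7 ± 0.291 CPM. The ratio of PES1 to WDR12 in CPM, not scaled for length, was 2.64 ± 0.038 with wild-type and 1.84 ± 0.064 with mutant BCL6 (SD, n = 3), with no overlap.

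In all, 13 such ratios between partners were computed and none was tested, so they are descriptions. The groups overlapped for the ratios of NHP2 to DKC1 and of GAR1 to DKC1, and not for the other 11. No share was computed for ratios of other gene pairs. Of all single tested genes, 72.4% had no overlap, but that share is not a background for ratios. Whether separation of a ratio is particular to these complexes was not tested.

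All 9 small subunit factors fell, with a median of -0.58 and sums of 1424 ± 35.8 and 967 ± 27.7 CPM (SD, n = 3). NAT10, which acetylates cytidines of ribosomal RNA, had 402.5, 427.5 and 415.2 CPM in the wild-type and 249.2, 253.7 and 247.2 CPM in the mutant rescue. The fall was 1.66-fold (log2 -0.73, SE 0.032; edgeR, adjusted p = 2.24e-14). HEATR1, a protein of the early processing complex that also aids RNA polymerase I transcription, varied most between libraries. It had 229.1, 259.9 and 237.5 CPM in the wild-type and 180.9, 214.5 and 188.8 CPM in the mutant rescue, and replicate 2 was the highest in both groups. Its fall of 1.24-fold passed all the same (log2 -0.31, SE 0.075; edgeR, adjusted p = 0.00793). NAT10, UTP20, another large protein of the early complex, and the helicase gene DDX21 also had their highest value of each group in replicate 2. The same was seen in several but not all factors of other classes, among them POLR1A, NCL and LYAR. UTP20 had 165.3, 178.7 and 177.1 against 109.9, 119.8 and 112.7 CPM and fell 1.52-fold. The export factor gene RRP12 fell 1.60-fold, with 57.4, 57.1 and 59.4 against 36.1, 36.7 and 36.3 CPM, and the late maturation factor gene TSR1 fell 1.51-fold, with 151.3, 152.1 and 152.2 against 98.4, 103.0 and 99.7 CPM. For these 3 genes the highest mutant library stayed below the lowest wild-type library by more than the range within either group. NOP14, an early assembly factor, fell from 107.0 ± 2.0 to 71.4 ± 1.90 CPM, and RRP9, a protein of the snoRNP that guides the first cleavages, fell 1.48-fold (SD, n = 3). WDR43, of the early complex, fell 1.41-fold from 145.1 ± 2.33 to 102.7 ± 1.22 CPM, and BYSL (bystin), needed late in small subunit maturation, fell 1.24-fold from 66.2 ± 1.35 to 53.2 ± 1.16 CPM.

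Of the 12 large subunit factors, 10 fell and 2 did not pass, with a median of -0.47 and sums of 1360 ± 5.65 and 989 ± 4.66 CPM (SD, n = 3). EBNA1BP2, an early assembly factor, had 162.0, 160.4 and 160.4 CPM in the wild-type and 104.1, 106.5 and 103.1 CPM in the mutant rescue, a 1.54-fold fall with little spread (log2 -0.62, SE 0.033; edgeR, adjusted p = 6.00e-13). NOP16 had 54.9, 54.6 and 54.4 against 35.5, 35.1 and 34.9 CPM and fell 1.55-fold. The nucleolar GTPase gene GNL3 (nucleostemin) had 231.1, 228.5 and 226.4 against 155.9, 152.9 and 147.4 CPM. In both genes the libraries of a group lay close together and the groups far apart. URB2, an early assembly factor, fell 1.49-fold from 105.0 ± 1.71 to 70.3 ± 2.04 CPM, and the ribosomal protein chaperone gene GRWD1 fell 1.47-fold from 119.1 ± 2.89 to 81.2 ± 3.33 CPM (SD, n = 3). NOC2L and NOC3L both act in large subunit assembly. NOC2L fell 1.40-fold, from 143.6 ± 3.99 to 102.3 ± 4.59 CPM, and NOC3L 1.2-fold, from 45.7 ± 0.404 to 38.2 ± 1.93 CPM. NOP2, which methylates cytosines of ribosomal RNA, fell 1.38-fold from 209.0 ± 3.75 to 151.8 ± 2.60 CPM. RRS1, which helps to bring in the ribonucleoprotein of the small ribosomal RNA of the large subunit, fell 1.28-fold from 60.9 ± 1.46 to 47.7 ± 3.16 CPM, and MRTO4, a placeholder for the stalk proteins, 1.22-fold from 133.3 ± 2.84 to 109.1 ± 1.88 CPM.

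The exceptions differed from each other. NIP7, needed for maturation of the large subunit's RNA, had 92.4, 97.1 and 95.4 CPM in the wild-type and 91.8, 95.6 and 93.1 CPM in the mutant rescue. The groups overlapped and the log2 fold change was -0.02 (SE 0.037; edgeR, adjusted p = 0.598), at a level where the 1.21-fold fall of WDR12 passed. With a replicate block and with trends of GC content and length removed, NIP7 passed as lower (adjusted p = 0.0439). PPAN was the least abundant factor, with 112, 105 and 85 counts in the wild-type and 75, 68 and 95 in the mutant rescue. Its difference of -0.33 on the log2 scale was larger than that of NIP7 but came with an SE of 0.15 (edgeR, adjusted p = 0.0544), so a fall of this size could not be told from the spread. Without wild-type replicate 3 (adjusted p = 0.0248) or mutant replicate 3 (adjusted p = 0.0137) it passed as lower, those libraries being the lowest and the highest of their groups. It also passed with no filter on low counts (adjusted p = 0.0313), with a replicate block (0.0227) and with GC and length trends removed (0.0196). PPAN shares exons on the same strand with P2RY11 and with a read-through gene that has its own row, at 0 in every library, so its counts are uncertain.

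Among the nucleolar phosphoproteins and chaperones 5 of 6 fell, with a median of -0.43. NPM3, a histone chaperone of the nucleoplasmin family that binds NPM1, had 37.1, 40.2 and 37.4 CPM in the wild-type and 18.7, 18.3 and 20.5 CPM in the mutant rescue. The mutant libraries lay near 50% of the wild-type level (log2 -1.0, SE 0.057; edgeR, adjusted p = 2.34e-12). NPM1 (nucleophosmin) fell 1.52-fold, from 297.9 ± 7.74 to 196 ± 7.88 CPM. It has 45 pseudogenes named after it in the GENCODE v29 annotation, and how reads that match several places were counted is not given in the sources used here, so its level is uncertain. The CPM ratio of NPM1 to NPM3 was 7.79 ± 0.146 with wild-type and 10.3 ± 0.944 with mutant BCL6 (SD, n = 3).

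The most abundant factor by CPM was NCL (nucleolin), which binds the ribosomal RNA precursor and its chromatin. It had 2214, 2222 and 2163 CPM in the wild-type and 1699, 1757 and 1707 CPM in the mutant rescue, 1.28-fold lower. The snoRNP chaperone gene NOLC1 had 314.0, 313.7 and 313.3 against 215.9, 228.0 and 221.0 CPM and fell 1.42-fold. DDX21, an RNA helicase, fell 1.28-fold with a wider spread in the mutant rescue (599 ± 11.3 against 468 ± 35.8 CPM, SD, n = 3). LYAR, a nucleolar zinc finger protein, was the 1 factor with a positive difference. It had 60.4, 65.1 and 56.9 CPM in the wild-type and 62.9, 64.8 and 63.5 CPM in the mutant rescue, with overlap (log2 0.07, SE 0.046; edgeR, adjusted p = 0.193). Without wild-type replicate 2, its highest wild-type library, LYAR passed as higher (log2 0.13; edgeR, adjusted p = 0.0230).

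**Figure D3:**
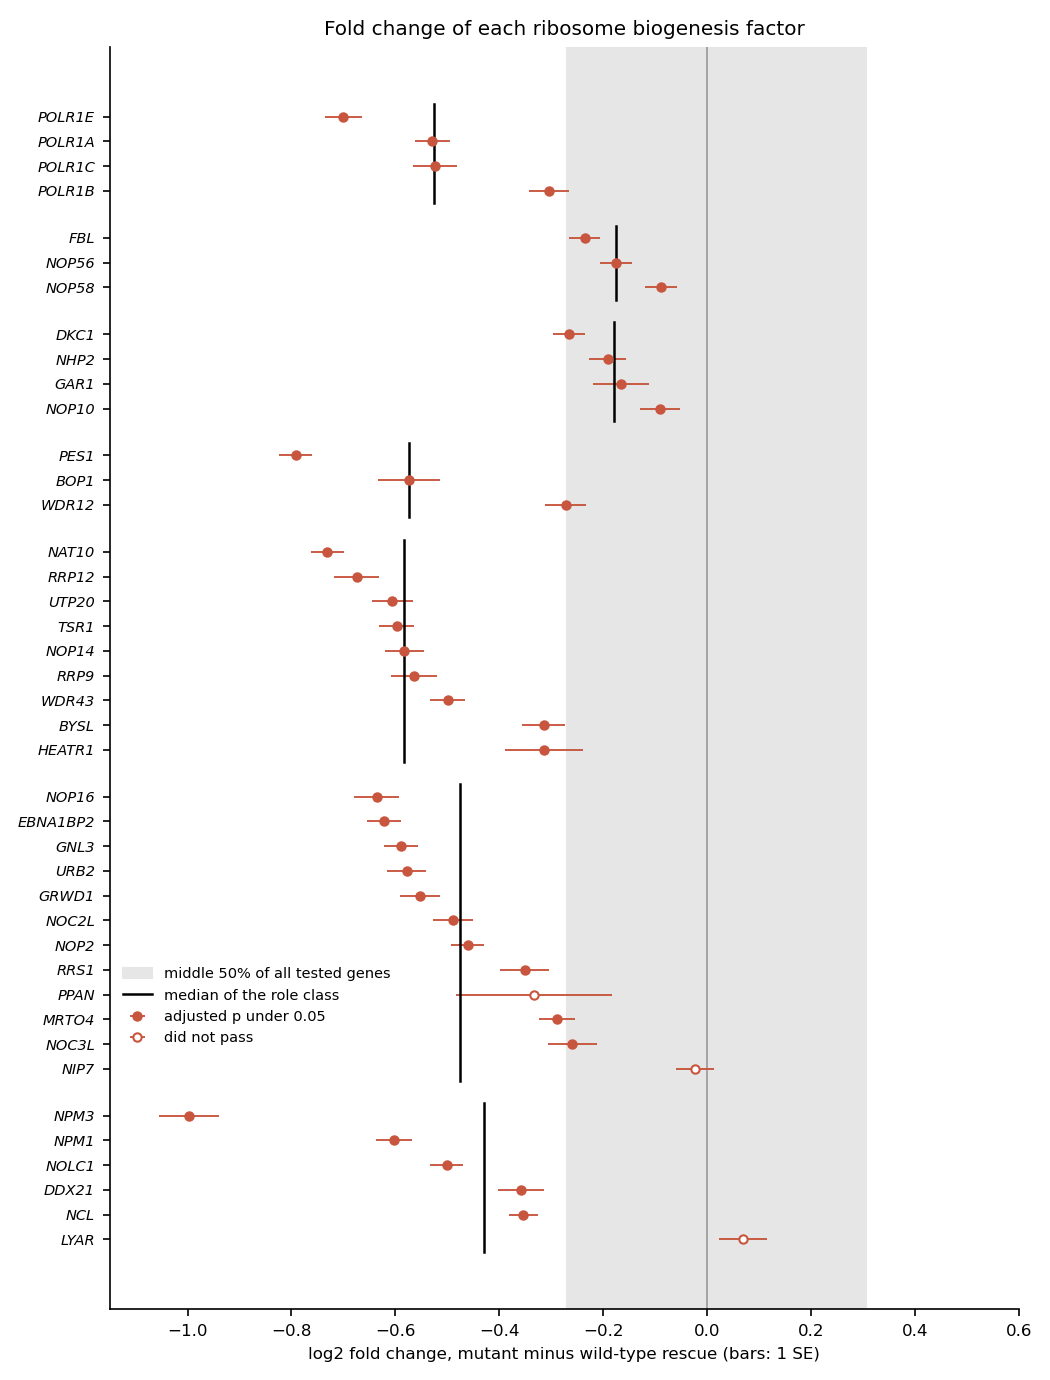
Points give the log2 fold change of each factor, mutant minus wild-type rescue, with bars of 1 SE; open points did not pass, black lines mark the median of each role class, and the grey band spans the quartiles of all tested genes. Class medians run from -0.58 for the small subunit factors to -0.18 for both snoRNP classes, whose points lie inside the grey band.

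A stricter test asks for a minimum change. When a fall had to exceed 1.2-fold (edgeR glmTreat), 25 of the 41 factors passed, against 17.7% of all tested genes. The 13 calls that ended were those of all 7 snoRNP proteins of the set (NOP56, NOP58, FBL, DKC1, GAR1, NHP2 and NOP10) together with POLR1B, WDR12, HEATR1, BYSL, MRTO4 and NOC3L. Genes of 1 class are not replicates, so the difference between classes is a description and was not tested.

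Levels can be compared between genes only per length. Over all 6 libraries and per kilobase of the longest annotated transcript, NCL led with 486 CPM per kilobase, followed by FBL at 251, NHP2 at 144, NPM1 at 141 and NOP10 at 126. The lowest were PPAN at 2.02, BOP1 at 8.47 and WDR12 at 8.47, the last with a longest transcript of 8100 bases that may not be the one these cells use. Both snoRNP classes thus held several of the most abundant members and the smallest falls. Across the 41 genes, however, the log2 fold change had little relation to the level per kilobase (Pearson r = 0.14, Spearman rho = 0.14). The values were 0.06 and 0.02 for mean log2 CPM, -0.13 and -0.16 for transcript length, and -0.30 and -0.30 for GC content. All these points come from the same 6 libraries. The median GC content was 50.9% for the 41 genes and 48.0% for all tested genes with a value.

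Falls were seen in factors with and without an E-box. Of the 17 with CACGTG in a window, 16 fell, with a median of -0.46. Of the 17 with a window but without it, 15 fell, with a median of -0.35. PES1 and NAT10, whose stretches are printed above, had the largest falls after that of NPM3, which had no CACGTG in its window.

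Annotated overlap with other genes bears on single values, because the strand setting of the counting is not given in the sources used here. In GENCODE v29, exons of 14 factors overlap exons of a gene on the opposite strand, exons of 5 overlap a gene on the same strand, and 8 have named pseudogenes, 22 factors in all. Of the 19 factors with none of these, all 19 fell, with a median of -0.50, and of the other 22, 19 fell, with a median of -0.47. NIP7, PPAN and LYAR were all among the 22. The overlapping partner of NIP7 on the opposite strand, COG8, fell by 0.56 on the log2 scale (edgeR, adjusted p = 1.48e-08).

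Introns of some of the factors hold small nucleolar RNAs, which are released when the host transcript is spliced. The table had rows for 22 of them, in 8 hosts, which together took 185, 155 and 163 counts in the wild-type and 225, 183 and 205 counts in the mutant rescue libraries. These are very few reads. The groups overlapped (185 against 183) as raw counts, which are not scaled for library size. The wild-type library with 185 was also the largest library, so the overlap does not describe scaled levels. Scaled sums are not given, so no separation of the groups is claimed either. Of 5 rows that could be tested, none fell and SNORD110, inside NOP56, passed as higher at the edge of the threshold, with 40, 43 and 34 against 55, 49 and 50 counts (log2 0.40, SE 0.18; edgeR, adjusted p = 0.0487), against 35.4% of all tested genes called higher. The host NOP56 fell 1.13-fold in the same libraries. Reads in these rows cannot be told apart from unspliced host transcript.

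The rest of the pathway was followed with 140 further genes listed by function, of which 98 fell, 13 rose and 29 did not pass, against 34.8% and 35.4% of all tested genes called lower and higher. Their median log2 fold change was -0.25, about midway between the 41 factors and all tested genes, and 8 of the 140 were at least 1.5-fold lower, a smaller share than the 9.35% of all tested genes. Their windows held CACGTG in 29 of 121 matched genes (24.0%). Against a minimum change of 1.2-fold, 43 were lower and none higher.

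**Figure D4:**
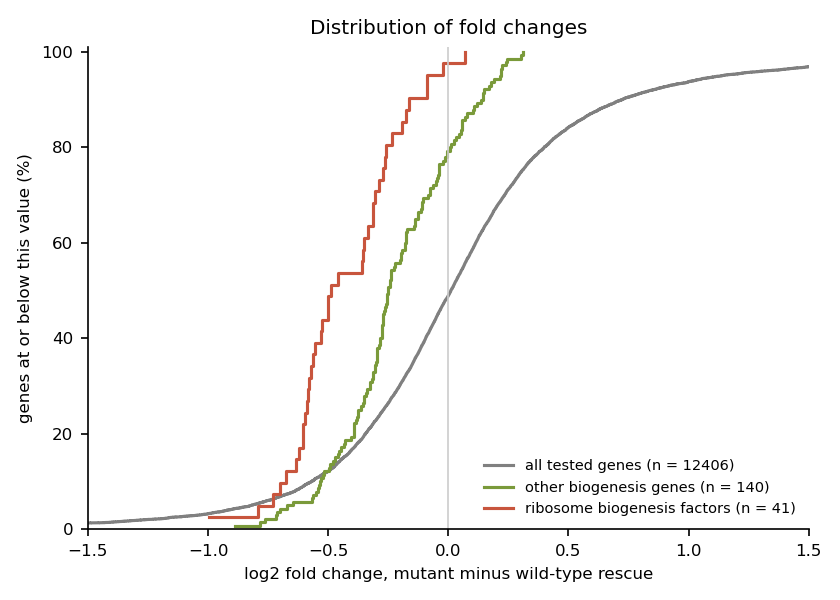
Lines show the percentage of genes at or below each log2 fold change (x axis, mutant minus wild-type rescue), in red for the 41 ribosome biogenesis factors, in green for 140 other genes of the pathway and in grey for all 12406 tested genes. The red line crosses 50% at -0.49, the green line at -0.25 and the grey line at 0.01.

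Of 17 other genes for RNA polymerase I and its factors, including subunits shared between polymerases, 9 fell, 3 rose and 5 did not pass. TAF1D, of the selectivity factor that recruits the polymerase, fell 1.85-fold from 79.1 ± 0.639 to 42.8 ± 0.176 CPM, and CD3EAP, the subunit that pairs with POLR1E, fell 1.62-fold from 13.5 ± 0.671 to 8.33 ± 0.858 CPM (SD, n = 3). The shared subunit gene POLR2F fell 1.31-fold. In the other direction, the subunit gene ZNRD1 rose 1.17-fold, TAF1A of the same selectivity factor 1.16-fold and the termination factor gene TTF1 1.16-fold. The central initiation factor genes UBTF (449.7 against 457.6 CPM; log2 0.03) and RRN3 (94.2 against 91.6 CPM; log2 -0.04) did not pass.

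Of 48 other genes listed as small subunit factors, 35 fell, 2 rose and 11 did not pass, with a median of -0.24. NOL6 fell 1.70-fold, HEATR3 1.64-fold and UTP14A 1.59-fold, while TSR2 and FCF1 rose 1.1-fold and 1.07-fold. HEATR3 was counted on this list, although its known role is in the large subunit. Of 50 other large subunit factors, 39 fell, 5 rose and 6 did not pass, with a median of -0.28. GNL3L, a relative of GNL3, fell 1.72-fold from 177 ± 2.91 to 102.7 ± 1.17 CPM, ZNF593 1.64-fold and URB1, the partner of URB2 in early large subunit assembly, 1.48-fold. NVL, an ATPase that removes assembly factors, rose 1.24-fold, the polynucleotide kinase gene NOL9 1.23-fold and the helicase gene DDX54 1.16-fold.

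The RNA exosome and other nucleases that trim the precursor were more mixed, with 9 of 15 lower, 2 higher and 4 not passing, and a median of -0.11. EXOSC7 fell 1.31-fold, the exonuclease gene XRN2 1.27-fold and EXOSC5 1.26-fold, whereas EXOSC1 rose 1.18-fold and the catalytic subunit gene EXOSC10 1.13-fold. Of 10 snoRNP assembly factors, 6 fell, 1 rose and 3 did not pass. RUVBL1, an ATPase of the assembly machinery, fell 1.44-fold, NAF1, which acts in H/ACA particle assembly before GAR1, 1.41-fold and ZNHIT6, of the box C/D pathway, 1.38-fold, while PIH1D1 rose 1.19-fold. This list also held NHP2L1, itself a core protein of box C/D particles, which fell by 0.27 on the log2 scale, from 220.0 ± 3.31 to 181.8 ± 3.61 CPM (SD, n = 3).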

How the data were processed

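Each sample had its own column of raw counts by gene symbol in the table the authors deposited. Trizol extraction and a TruSeq RNA library are stated per the labels' protocols. The submitters' processing notes name CASAVA 1.8.2, STAR, edgeR and build hg19. How reads were counted, with which annotation and strand, and what was done with multi-mapping reads is not given in the sources used here.

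Counts were tested in R 4.3.3 with edgeR 4.0.16. filterByExpr at its defaults kept 12406 of 23250 genes, libraries were scaled by TMM (factors 0.987 to 1.02), and robust quasi-likelihood fits compared both rescues with no covariate. Adjusted p is by Benjamini-Hochberg over every tested gene (threshold 0.05). The SE of a log2 fold change is its size divided by the square root of the F statistic. At these depths a floor of 3 counts is 0.109 to 0.114 CPM, and counting error is the only error it covers. One listed gene of the pathway, TSR3, was not matched by symbol, and ribosomal RNA rows were not analysed here.

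Transcript length and GC content came from the longest GENCODE v29 transcript of each symbol, found for 95.7% of tested genes and all 41 factors. Promoter windows came from RefSeq. Full values are given for the factors with the smallest and the largest adjusted p of each role class and for those that did not pass, and, of each further list, for up to 3 genes per direction with the largest change and a mean count of at least 50. UBTF, RRN3 and NHP2L1 were named after their values were seen. The factors, lists and motifs were chosen with earlier results of these data known. The alternatives tried were 3 other scalings (upper-quartile, RLE, library size), limma-voom (limma 3.58.1), DESeq2 1.42.0, 2 other filters, the replicate number as a block, glmTreat, removal of GC and length trends (mgcv 1.9.3), and leaving out each library.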

Additional observations from a re-analysis of the deposited data

How the results depend on the processing

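Over 17 alternative settings the median log2 fold change of the 41 factors stayed between -0.54 and -0.46, that of the other pathway genes between -0.30 and -0.22, and at most 1 factor was called higher. Medians moved by more than the spread between libraries with library size scaling (-0.46 for the factors, -0.22 for the other genes), with a minimum of 1 CPM (-0.47 for the factors), and with GC and length trends removed (-0.54 and -0.30, the same to 2 decimals with a replicate block added), and also for the factors without wild-type replicate 1 (-0.47) or mutant replicate 1 (-0.47) and for the other genes without wild-type replicate 2 (-0.23). With those trends removed the median of all tested genes went from 0.01 to -0.04 (-0.0391, and -0.0397 with the replicate block). Against a minimum change of 1.2-fold, 4585 genes were called in place of 8702, with 25 factors lower, 43 other genes lower and 0 higher, because that test asks for more than a difference from zero. Leaving out 1 library at a time gave 36 to 38 factors lower, 0 to 1 higher (LYAR without wild-type replicate 2), medians of -0.50 to -0.47 for the factors and -0.26 to -0.23 for the other genes, 92 to 100 other genes lower, 12 to 16 higher, and 8099 to 8916 genes called. NIP7 changed sign with library size scaling (log2 0.0031). Whether the replicate numbers pair the libraries is not stated. Deviations of same-numbered libraries correlated at 0.14, 0.17 and -0.05, and those of differently numbered libraries at -0.18 to 0.07. These values do not settle whether the libraries are paired. With the replicate block 39 factors and 98 other genes were lower and 17 other genes higher, PPAN being the added factor. That block gave 9285 genes called in place of 8702. PPAN had the fewest counts of the 41 factors, 68 to 112 in a library, and the largest SE, 0.15.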
